A study of Homo sapiens with 38 samples.

Results

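Total RNA was sequenced from BE2C cells transfected for 72 h with siRNA against KDM6B, and 2 of the siRNAs, N1 and N2, were set against the control siRNA, siCtrl. The comparison took 8 of the 38 deposited files of the series and held 4 libraries, each the sum of 2 files: siCtrl 1, siCtrl 2, siKDM6B N1 and siKDM6B N2. The members were chosen by label alone, and a further siRNA labelled N33 was left out. BE2C is an established human neuroblastoma line with amplified MYCN, and all 4 libraries came from this line without any other agent. Each KDM6B siRNA was represented by 1 library, so the 2 siRNAs served as the replicates of the group labelled siKDM6B. The labels do not say whether the siCtrl libraries came from separate cultures, and p-values therefore measure only the spread between these libraries, which may be technical. GSK-J4, an ester pro-drug from which cells form the KDM6 inhibitor GSK-J1, was used in the same line at 2.5 μM. It is brought in for 1 comparison, with 2 libraries before treatment and 2 at 48 h. Libraries at 24 h of GSK-J4, and N33, enter only some alternatives in the last section.

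KDM6B, also called JMJD3, is a JmjC-domain enzyme that removes methyl groups from lysine 27 of histone H3, the mark written by the EZH2-containing polycomb complex PRC2. KDM6A is its closest active relative. E2F factors with their DP partners switch on the genes of DNA synthesis and mitosis, and RB, which CDK4 and CDK6 phosphorylate, holds them in check. Replication-dependent histone genes are transcribed mainly in S phase, and their messenger RNAs end in a stem-loop and not in a poly(A) tail, so they are seen in total RNA.

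The 4 libraries held 41227956 to 50776662 counts on genes, and 3 counts in a library stood for 0.0591 to 0.0728 CPM, which are counts divided by the library's scaled total in units of 1000000. All levels below are CPM after scaling by trimmed means, with siCtrl 1, siCtrl 2, N1 and N2 given in that order, and fold changes are on the log2 scale with their standard error (SE) from edgeR. The 10 markers of neuroblastoma identity were all present, each at 1 CPM or more in every library. Their summed level was 2549 and 2717 in siCtrl and 2782 and 2454 in the libraries labelled N1 and N2. The 6 immune markers summed to at most 0.864 CPM, the 3 endothelial markers to at most 0.463 CPM and the 4 epithelial markers to at most 1.55 CPM, with CD3E, KDR and KRT14 at 0 in every library. The 5 Schwann cell markers summed to 4.99 and 5.14 in siCtrl and to 8.53 and 2.26 in N1 and N2, with SOX10 at 0. The 6 fibroblast markers summed to 154 and 156 against 235 and 219, and none of them was at 0 in all libraries.

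The messenger RNA of KDM6B was not lower in the libraries labelled with its siRNAs. It stood at 6.36 and 8.64 CPM with siCtrl, and at 8.876 and 6.999 CPM where the label read siKDM6B N1 and N2. The ranges of the 2 groups overlapped, and the fitted change was 0.08 (SE 0.26), with an adjusted p of 0.906 by edgeR's quasi-likelihood test. Its 95% interval ran from -0.61 to 0.77, so a moderate fall or rise lies within it. The gene lies on chromosome 17 from 7737535 to 7758114 in GRCh37. The level of the targeted RNA therefore did not show the knockdown that the label names. The study describes depletion of KDM6B by siRNAs in this line, with immunoblots, and protein was not analysed here. For that reason the siRNA names below are those of the labels only, and each direction is that of the libraries so labelled.

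No gene passed an adjusted p of 0.05. Of 17044 genes tested by edgeR, 0 were called (0%), with 0.178 as the smallest adjusted p. At an unadjusted p under 0.05 there were 2886 genes, of which 1459 were higher and 1427 lower in the libraries labelled siKDM6B. limma-voom likewise called 0 genes. DESeq2 called 643 of the 14070 genes to which it gave an adjusted p, 290 higher and 353 lower, or 2.06% and 2.51%. Without the library labelled N1 edgeR called 8737 genes and without that labelled N2 it called 9573, with the remaining siRNA library assumed to vary like siCtrl. Lists of genes are therefore described by how many members stood on the same side in both libraries labelled siKDM6B. Among all tested genes, 25.8% were above both siCtrl libraries in both, and 26.2% were below both. The list counts given below are to be read beside these shares. A stricter count, chosen after the data were seen, asked for a mean of 1 CPM or more and a gap of at least 2-fold. It held 95 genes on the higher side (0.557%) and 146 on the lower side (0.857%).

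The libraries labelled N1 and N2 differed from each other about as much as from the control. Over the 13212 genes with a mean of 1 CPM or more, the log2 ratio of siCtrl 2 to siCtrl 1 had an SD of 0.16. The SD was 0.62 for N1 against the siCtrl mean, 0.59 for N2 against the siCtrl mean and 0.70 for N1 against N2. Only 2 genes were 2-fold higher and 1 gene 2-fold lower in siCtrl 2 than in siCtrl 1. The same limit was passed by 570 genes upward and 862 downward in N1, and by 415 upward and 817 downward in N2. The spread that the tests used was thus mainly that between the 2 siRNA libraries.

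The genes named first are the 12 on each side with the smallest unadjusted p, since none passed the adjusted threshold. Each had a mean of at least 1 CPM and both libraries labelled siKDM6B on the same side of both siCtrl libraries. All 24 had an adjusted p of 0.178 by edgeR. Because they were selected by this contrast, their separation is a description.

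DCX, which encodes doublecortin, a microtubule-binding protein of migrating neurons, stood at 106 and 119 CPM with siCtrl, against 376 and 332 CPM with N1 and N2. Its fitted change was 1.65 (SE 0.15), the gene lies on the X chromosome from 110537007 to 110655657 in GRCh37, and the groups were far apart beside the gap within each. CX3CL1, a membrane-bound chemokine, was at 10.9 and 10.6 against 30.1 and 35.5 CPM, a change of 1.61 (SE 0.17). TXNIP, an arrestin-like protein that binds thioredoxin and limits glucose uptake, was at 99.0 and 91.5 against 236 and 273 CPM, a change of 1.42 (SE 0.15). RRAGB, a Rag GTPase in amino acid sensing by mTORC1, was at 11.6 in both siCtrl libraries and at 30.7 and 32.7 CPM in N1 and N2. In all 4 of these genes the lower siRNA library exceeded the higher siCtrl library by more than 2-fold.

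PLXDC2, a plexin-domain membrane protein, had the largest fitted change of the 12, 1.78 (SE 0.19), with 5.36 and 5.65 against 17.5 and 20.4 CPM. HERPUD2 was at 5.92 and 6.03 against 20.1 and 18.1 CPM, and NAALAD2, of the glutamate carboxypeptidase family, was at 27.0 in both siCtrl libraries against 75.4 and 66.4 CPM. NELL1, a secreted protein with EGF-like repeats, and CLDN12, a claudin, had changes of 1.39 and 1.43. PROS1, the anticoagulant protein S, and PAM, the enzyme that amidates neuropeptides, had changes of 1.35 and 1.29. KLHL24, a substrate adaptor of cullin 3 ligases, had the smallest change of the 12, 1.25 (SE 0.14). None of these 12 genes is on the cell cycle lists.

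On the lower side, KCTD12, an auxiliary subunit of GABA-B receptors, stood at 262 and 274 CPM with siCtrl, against 36.5 and 51.4 CPM with N1 and N2. The change was -2.61 (SE 0.22), and the gene lies on chromosome 13 from 77454310 to 77460540 in GRCh37. Both siRNA libraries were more than 5-fold under either siCtrl library. RHOXF1P3 is a pseudogene by its symbol, but the annotation used for positions types it as protein-coding. It had the largest fitted change, -3.77 (SE 0.35), but at low levels of 2.98 and 2.32 against 0.210 and 0.174 CPM. CCDC113, a ciliary protein, was at 20.5 and 20.4 against 4.98 and 4.87 CPM, a change of -2.06 (SE 0.18). C8orf48 was at 11.1 and 11.7 against 2.59 and 2.65 CPM. In CCDC113 and C8orf48 the 2 siRNA libraries lay close to each other, far under the control.

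Genes of DNA replication and histones made up 4 of the 12 lower genes. CLSPN, which encodes claspin, the adaptor between ATR and CHK1 at stalled forks, was at 55.5 and 54.8 against 18.7 and 20.7 CPM, a change of -1.49 (SE 0.15). ESCO2, the acetyltransferase that fixes cohesin on sister chromatids in S phase, was at 108 and 101 against 37.5 and 39.1 CPM, a change of -1.44 (SE 0.14). The other 2 were the H2B genes HIST1H2BB and HIST1H2BJ, described with the histones. The remaining lower genes did not share a list. DSE, dermatan sulfate epimerase, was at 54.1 and 56.4 against 13.8 and 17.6 CPM, and MAP2K6, an upstream kinase of p38, was at 20.8 and 21.3 against 5.89 and 6.46 CPM. PAFAH1B2, a catalytic subunit of platelet-activating factor acetylhydrolase, was at 493 and 459 against 184 and 176 CPM, and the zinc finger gene ZNF664 was at 312 and 315 against 127 and 112 CPM.

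**Figure D1:**
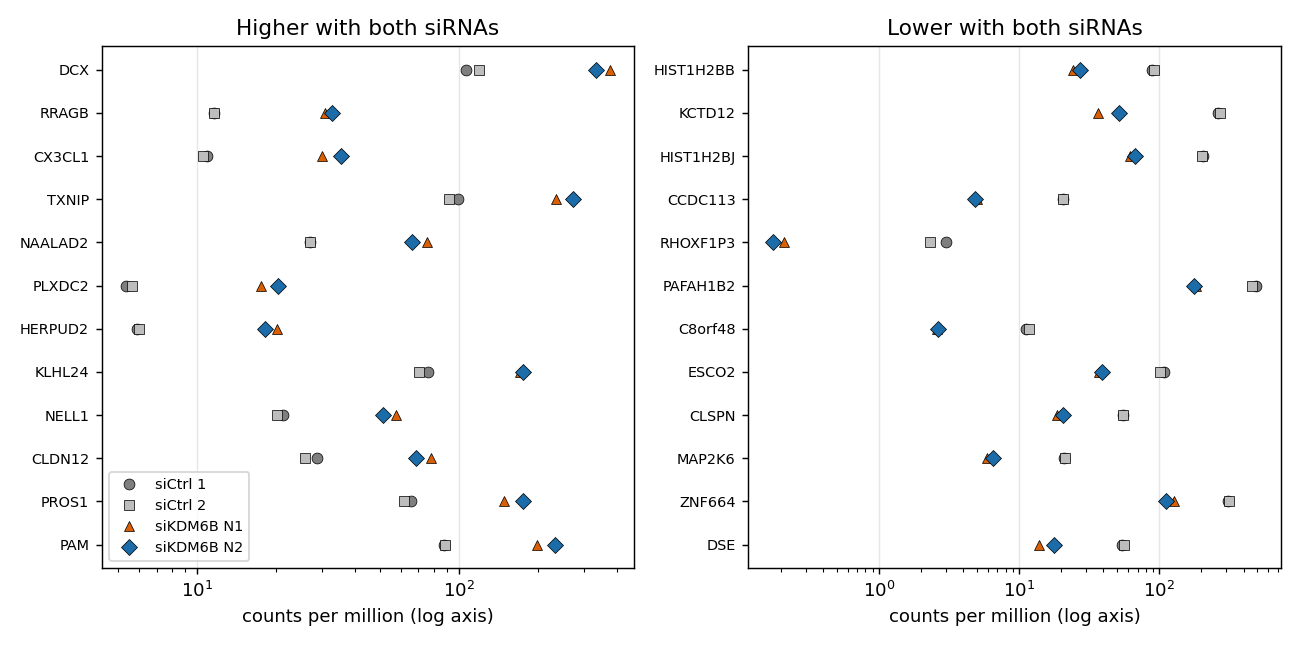
Levels in CPM (log axis) of the 12 genes named on the higher side (left) and the 12 on the lower side (right), with 1 symbol for each of the 4 libraries. In every row the 2 libraries labelled siKDM6B stand apart from the 2 siCtrl libraries, as in KCTD12 at 262 and 274 against 36.5 and 51.4 CPM, and the selection rule required that side.

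The replication-dependent histones were lower as a group. Of 63 listed genes, 58 were tested and 57 were below both siCtrl libraries in both libraries labelled siKDM6B, or 98.3% against 26.2% of all genes, and 0 were above. The exception was HIST1H2AK, at 29.6 and 31.0 against 10.4 and 33.2 CPM. The median change was -0.92, beside 0.02 over all genes tested, and the medians were -0.95 in N1 and -0.80 in N2 against the siCtrl mean. DESeq2 called 33 of the 56 histones it could judge, all lower, whereas edgeR called 0 of 58. By the 2-fold rule 9 were lower, or 15.5% of the 58 tested, against 0.857% of all genes.

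All 5 histone classes were lower to a similar degree. The summed level of the 4 linker histone H1 genes was 2020 and 1962 in siCtrl against 1177 and 1206 CPM in N1 and N2, a ratio of 0.598. The ratio of group means was 0.531 for the 14 H2A genes, 0.530 for the 17 H2B genes, 0.520 for the 10 H3 genes and 0.629 for the 13 H4 genes. HIST1H2BB was at 88.2 and 91.2 against 24.2 and 27.2 CPM, a change of -1.80 (SE 0.15), the lowest of the 58. HIST1H2BJ was at 206 and 202 against 61.6 and 67.6 CPM, a change of -1.66 (SE 0.14). At the other end HIST1H3E, with 38.6 in both siCtrl libraries, was at 25.6 and 38.0 CPM, a change of -0.28 (SE 0.23), so N2 was scarcely under the control. HIST1H2BM had a change of -1.48 and HIST1H3J of -1.43. HIST1H1B, which makes the linker histone H1.5, had a change of -1.07. The copies HIST2H2AA3 and HIST2H2AA4, and HIST2H4A and HIST2H4B, share near-identical sequence, so their counts are uncertain, and 5 listed genes were too low to test.

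The H2B promoters are shown because 3 of the 4 lowest histones were H2B genes, the other being HIST2H2AA3 with a change of -1.67, and because their octamer element is a textbook feature of this class. The 46 tested genes of the HIST1 family lie on chromosome 6 from 26020679 to 27861669 in GRCh37. In RefSeq promoters of GRCh38.p14, each 250 bases before to 50 after the start, 53 of the 58 tested histones had an entry. The octamer ATTTGCAT, searched on both strands, was in 9 of 17 H2B promoters and in 1.83% of all 27305 promoters. CCAAT was in 17 of 17 H2B promoters and in 35.4% of all. It was also in 44 of 53 promoters of the whole histone list, 30 of 44 G2/M promoters and 21 of 33 S-phase promoters. The windows of 60 bases below are written along the gene, with the octamer in capitals, and were placed in GRCh37 by exact match at chr6:26044028-26044087 (minus strand), chr6:27100588-27100647 (minus strand) and chr6:27782726-27782785 (plus strand).
HIST1H2BB: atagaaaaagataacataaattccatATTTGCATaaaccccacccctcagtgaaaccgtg
HIST1H2BJ: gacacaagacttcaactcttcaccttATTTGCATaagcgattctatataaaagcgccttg
HIST1H2BM: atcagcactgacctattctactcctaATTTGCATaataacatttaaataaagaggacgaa
Tested genes without a promoter entry could not be sorted by the octamer, and among those with an entry it did not mark a shift. The median change was -0.01 for the 158 genes with it and -0.01 for the 11079 without it.

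The S-phase and G2/M genes were lower as groups in both libraries. The 43 S-phase genes had a median change of -0.56, with 36 below both siCtrl libraries (83.7%, against 26.2% of all genes) and 1 above. The 54 G2/M genes had a median change of -0.55, with 45 below (83.3%) and 2 above. The medians in N1 and N2 were -0.52 and -0.54 for S phase and -0.57 and -0.45 for G2/M. DESeq2 called 11 S-phase and 13 G2/M genes lower and 0 higher, while edgeR called 0 in either list. The 49 genes of replication licensing and the fork had a median of -0.50, with 36 below and 1 above. The 25 E2F targets that the study displayed for its siRNA experiment had a median of -0.70 and were all below. That list was chosen on data of these samples and is not independent evidence of its direction.

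Among S-phase genes, CLSPN was the lowest and USP1, the deubiquitinase of FANCD2 and PCNA, was at 158 and 147 against 75.7 and 61.4 CPM, a change of -1.15 (SE 0.15). CDC45, part of the replicative helicase, was at 69.5 and 71.0 against 30.6 and 38.8 CPM, a change of -1.02. RRM2, the small subunit of ribonucleotide reductase, was uneven between the libraries, at 365 and 366 against 317 and 97.4 CPM.

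Among G2/M genes, HMMR, a spindle-associated hyaluronan receptor, was at 222 and 196 against 53.4 and 112 CPM, a change of -1.34 (SE 0.38). CENPE, the kinetochore kinesin, was at 192 and 175 against 98.5 and 90.3 CPM, a change of -0.96. CDCA3 was at 41.0 and 40.6 against 15.3 and 23.3 CPM, a change of -1.08. The aurora kinase AURKB, of the chromosomal passenger complex, was at 44.4 and 44.1 against 22.7 and 25.7 CPM, a change of -0.87, and the libraries of each group lay close together. CKS1B, a CDK-binding subunit, went the other way at 73.1 and 69.8 against 119 and 74.3 CPM. CBX5, heterochromatin protein 1 alpha, was above both controls at 687 and 750 against 910 and 1025 CPM.

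Promoter sequences of lower cell cycle genes are shown for the elements that define these classes in textbooks, the E2F site and the cell cycle homology region (CHR). E2F words (TTTCCCGC, TTTGGCGC, TTTCGCGC or TTTGCCGC, both strands) were in 15 of 33 S-phase promoters with an entry, in 3 of 44 G2/M promoters and in 3.23% of all. The CHR word TTTGAA, both strands, was in 31 of 44 G2/M promoters, 3 of 33 S-phase promoters and 15.9% of all. It was also in 24 of 53 histone promoters and in 15 of 46 promoters of the clustered protocadherins, described below. The windows, with the matched word in capitals, lie in GRCh37 at chr1:36235551-36235610 (minus strand) for CLSPN, chr3:48229918-48229977 (minus) for CDC25A, chr10:96305443-96305502 (plus) for HELLS, chr15:59397290-59397347 (plus) for CCNB2 and chr5:162887584-162887641 (plus) for HMMR.
CLSPN: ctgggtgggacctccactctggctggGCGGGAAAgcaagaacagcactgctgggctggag
CDC25A: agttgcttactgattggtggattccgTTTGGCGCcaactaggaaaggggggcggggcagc
HELLS: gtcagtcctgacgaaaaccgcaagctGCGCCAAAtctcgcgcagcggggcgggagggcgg
CCNB2: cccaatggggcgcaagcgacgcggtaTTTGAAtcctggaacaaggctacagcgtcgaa
HMMR: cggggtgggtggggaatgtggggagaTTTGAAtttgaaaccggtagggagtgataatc
The words by themselves went with little. The 567 tested genes with an E2F word had a median change of -0.08, and the 1177 with the CHR word a median within 0.01 of 0.

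**Figure D2:**
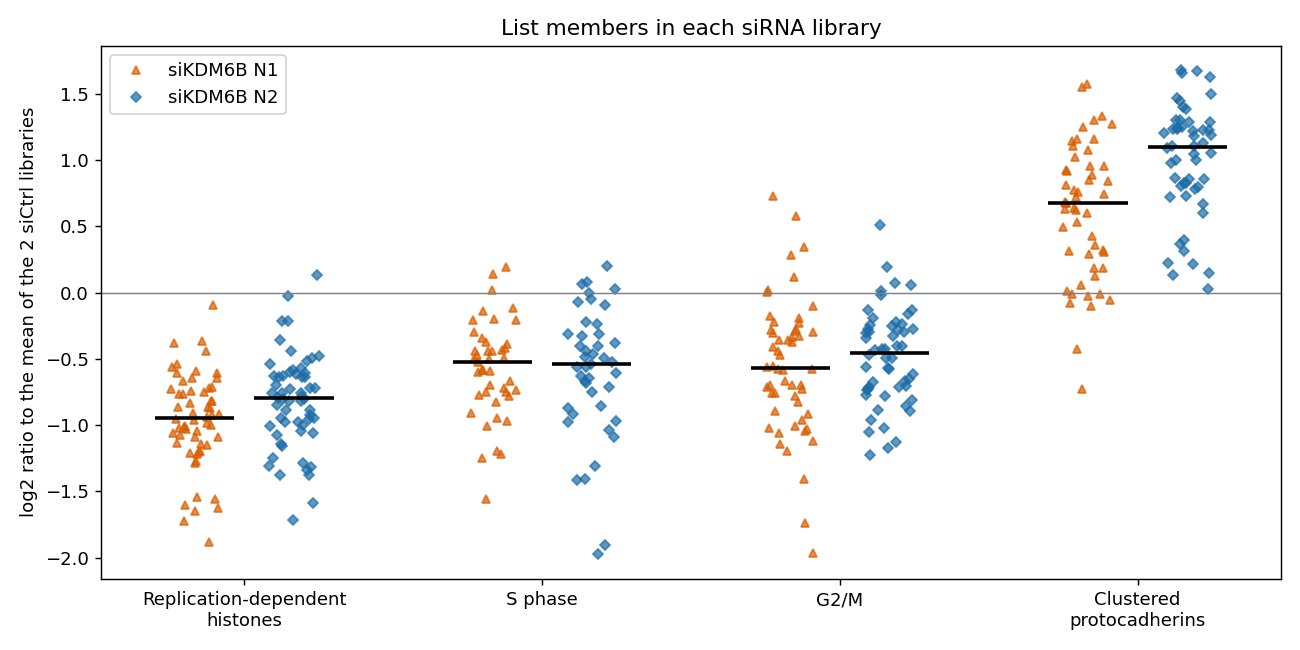
Log2 ratio of each tested member to the mean of the 2 siCtrl libraries, for 4 lists, with the library labelled N1 (triangles) and N2 (diamonds) side by side and a bar at each median. The histone bars stand at -0.95 and -0.80, the protocadherin bars at 0.68 and 1.10, and both libraries share the same 2 controls.

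The E2F family itself was mixed. Of 10 tested members of the E2F and DP family, 4 were below and 1 above both controls in both libraries. The shares over all genes were 26.2% and 25.8%. E2F8, a repressor of the family and itself a target of E2F, was at 10.0 and 12.7 against 4.72 and 4.22 CPM, a change of -1.35 (SE 0.23). E2F1, the founding activator, was at 83.6 and 81.8 against 52.95 and 58.95 CPM, a change of -0.56 (SE 0.14). The DP partners stood on opposite sides. TFDP1 was at 179 and 183 against 116 and 60.5 CPM, a change of -1.04 (SE 0.33), and TFDP2 was at 49.3 and 52.3 against 99.9 and 70.6 CPM, a change of 0.75 (SE 0.21). E2F7, another repressor, was at 24.7 and 26.6 against 19.7 and 12.6 CPM. E2F5, a partner of p130, was at 16.9 and 15.4 against 51.8 and 15.7 CPM, so N1 alone stood apart. E2F2, E2F3 and E2F6 had N1 above and N2 below the siCtrl libraries, and E2F4 had N1 below and N2 above.

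Upstream of E2F, 4 of 7 D-type cyclins, CDKs and pocket proteins were below both controls in both libraries and 1, CCND1, was above. The shares over all genes were 26.2% and 25.8%. CCND1, cyclin D1, was at 1543 and 1627 against 1799 and 1665 CPM, a change of 0.13 (SE 0.14). CCND3 was at 34.8 and 36.2 against 21.9 and 21.4 CPM, a change of -0.71 (SE 0.15), with both groups tight. RB1, which encodes RB, was at 185 and 178 against 144 and 125 CPM, a change of -0.43. RBL1, encoding p107, was at 55.7 and 56.0 against 43.8 and 45.9 CPM, and CDK4 at 326 and 332 against 275 and 306 CPM. CDK6 was at 508 and 506 against 409 and 739 CPM and RBL2, encoding p130, at 84.4 and 81.9 against 54.0 and 87.5 CPM, so both had the siRNA libraries on either side of the control.

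Of 7 tested CDK inhibitors, 1 was above and 1 below both controls in both libraries, no larger a part than the 25.8% and 26.2% of all genes. CDKN1B, encoding p27, was at 107 and 105 against 140 and 134 CPM, a change of 0.37 (SE 0.13). CDKN2C, encoding p18, was at 38.0 and 36.6 against 30.6 and 25.2 CPM. CDKN1A, encoding p21, was at 2.54 and 2.97 against 5.96 and 2.15 CPM, so only N1 was high, and CDKN2D was at 4.72 and 4.66 against 5.28 and 1.41 CPM, so only N2 was low. In CDKN2A, CDKN2B and CDKN1C the siRNA libraries lay on either side of the control.

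Among 10 cyclins E, A and B and their partners, 8 were below both controls in both libraries, against 26.2% of all genes. CDC25A, the phosphatase that activates CDK2, was at 91.7 in both siCtrl libraries against 56.4 and 49.6 CPM, a change of -0.79 (SE 0.15). CDK2 was at 61.0 and 62.5 against 40.1 and 25.8 CPM, a change of -0.91, and CCNB1, cyclin B1, was at 385 and 363 against 257 and 233 CPM, a change of -0.61. CCNE2 was at 42.9 and 39.2 against 27.3 and 10.4 CPM, a change of -1.13 (SE 0.47), with the siRNA libraries further from each other than N1 was from the control. CCNA2, CCNB2, CDC25B and CDC25C were also below both controls in both. CDK1 was at 137 and 126 against 196 and 132 CPM, and CCNE1 at 9.63 and 7.67 against 12.5 and 6.90 CPM.

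In the KDM6 and PRC2 group, 7 of 13 tested genes were below and 3 above both controls in both libraries. The shares over all genes were 26.2% and 25.8%. SUZ12, a core subunit of PRC2, was at 79.5 and 74.6 against 42.5 and 30.3 CPM, a change of -1.08 (SE 0.21). EZH2, the catalytic subunit, was at 91.6 and 91.2 against 50.4 and 71.2 CPM, a change of -0.59 (SE 0.21). MTF2, an accessory subunit, was at 84.2 and 78.3 against 60.3 and 47.6 CPM, a change of -0.59. EED, the third core subunit, was at 31.3 and 30.7 against 31.7 and 37.0 CPM, and EZH1 at 25.9 and 25.5 against 37.0 and 29.4 CPM, so the core subunits did not share a direction. KDM6A was at 38.7 and 37.8 against 50.5 and 54.4 CPM, a change of 0.46 (SE 0.14). RBBP4 was at 256 and 268 against 226 and 223 CPM, RBBP7 at 155 in both siCtrl libraries against 112 and 138 CPM, and PHF1 at 24.0 and 23.2 against 14.3 and 18.8 CPM. JARID2 was at 82.9 and 85.2 against 57.5 and 89.9 CPM, AEBP2 at 34.8 and 37.9 against 34.0 and 48.3 CPM, and PHF19 at 78.1 and 79.5 against 76.2 and 53.6 CPM. Among 19 other JmjC demethylases, 8 were above and 1 below both controls, with a median of 0.21 and the largest change, 0.56, in JMJD1C.

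MYCN was at 1568 and 1590 CPM with siCtrl, against 1720 and 1709 CPM with N1 and N2, a change of 0.12 (SE 0.13, adjusted p = 0.682 by edgeR). MYC was under 0.4 CPM in every library. In the MYC and MAX network, 8 of 12 genes were above and 1 below both controls, beside 25.8% and 26.2% of all genes. The 1 below was MXD3, a repressor of the network expressed in S phase, at 14.01 and 13.73 against 6.70 and 7.48 CPM. Of 28 MYC targets in ribosome and nucleotide synthesis, 12 were below and 1 above, with a median of -0.15.

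The clustered protocadherins were higher as a group. These cell adhesion genes of neurons lie in 3 clusters on chromosome 5 from 140165721 to 140892544 in GRCh37, where each variable exon has its own promoter and, in the alpha and gamma clusters, is spliced to shared constant exons. Of 53 genes, 52 were tested and 42 were above both siCtrl libraries in both libraries labelled siKDM6B, or 80.8% against 25.8% of all genes, and 0 were below. The median change was 0.95, and the medians were 0.68 in N1 and 1.10 in N2. DESeq2 called 12 of the 49 it could judge, all higher, and edgeR called 0 of 52. Counting read pairs on overlapping gene models sets pairs on the constant exons aside, so these values rest mainly on the variable exons, and most members were low.

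The gamma cluster was furthest from the control. Its 22 genes had a median of 1.13, 20 of them above in both, and a summed level of 81.5 and 89.7 in siCtrl against 147 and 191 CPM in N1 and N2, a ratio of 1.97. The 15 beta genes had a median of 0.83, 13 of them above in both, and a ratio of 1.68. The 15 alpha genes had a median of 0.48, 9 of them above in both, and a ratio of 1.27. By the 2-fold rule 9 of the 52 tested protocadherins were higher, all of them gamma genes, against 0.557% of all genes. PCDHGB5 had the largest change, 1.79 (SE 0.30), with 0.538 and 0.463 against 1.66 and 1.80 CPM. PCDHGA7 was at 1.32 and 1.85 against 4.16 and 5.12 CPM, a change of 1.54 (SE 0.30). PCDHB14 had the smallest change, at 9.39 and 9.31 against 9.41 and 10.4 CPM. In the beta cluster N2 stood further out than N1, with summed levels of 132 in N1 and 216 CPM in N2 against 99.6 and 108 CPM in siCtrl.

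Protocadherin promoters are known for a conserved element with a CGCT core. The commonest 8-letter word holding that core, sought in the tested members of each cluster, was GTGGCGCT for beta genes and GCGCCGCT for gamma genes. GTGGCGCT was in 13 of 13 beta promoters with an entry, in 0 of 20 gamma promoters, in 0 of 13 alpha promoters and in 1.13% of all. GCGCCGCT was in 9 of 20 gamma promoters and in 3.11% of all, but PCDHGB4 and PCDHGB5 held it in 1 shared stretch, so the 9 had 8 distinct surroundings. For alpha genes the word was ATGTCGCT, in 9 of 13 promoters with an entry and in 0.253% of all. The words were chosen on these promoters, so the shares describe the sequences. Windows of the highest beta genes, and of 2 gamma genes that held the word in that orientation, are shown to let the shared surroundings be read. They lie on the plus strand of GRCh37 at chr5:140593423-140593482, chr5:140479963-140480022, chr5:140571858-140571917, chr5:140762202-140762261 and chr5:140792484-140792543, and the word is in capitals.
PCDHB13: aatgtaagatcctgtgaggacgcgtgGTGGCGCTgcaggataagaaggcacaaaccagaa
PCDHB3: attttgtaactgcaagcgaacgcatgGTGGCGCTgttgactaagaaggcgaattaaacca
PCDHB10: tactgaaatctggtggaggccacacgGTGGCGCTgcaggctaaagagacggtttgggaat
PCDHGA7: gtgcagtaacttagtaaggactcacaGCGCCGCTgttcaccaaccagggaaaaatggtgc
PCDHGA10: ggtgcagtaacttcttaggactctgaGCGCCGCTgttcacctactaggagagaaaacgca
PCDHB13, PCDHB3 and PCDHB10 had changes of 1.31, 1.08 and 1.03, and PCDHGA10 of 1.39. Among tested genes with a promoter entry, the beta and gamma words marked no shift. The medians were -0.02 for the 188 genes with GTGGCGCT and -0.02 for the 617 with GCGCCGCT. The 37 genes with ATGTCGCT had a median of 0.184, against -0.015 for the 11200 without it, and those 37 include alpha genes themselves.

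Axon guidance genes leaned the same way with wide variation. Of 49 tested, 22 were above and 7 below both controls in both libraries (44.9% and 14.3%), with a median of 0.26. The shares over all genes were 25.8% and 26.2%. ROBO1, a receptor for SLIT ligands, was at 107 and 111 against 199 and 224 CPM, a change of 0.95 (SE 0.14). SEMA3E, a secreted semaphorin, was at 8.78 and 8.87 against 25.3 and 18.4 CPM, a change of 1.31, and EFNA1, an ephrin ligand, was at 2.49 and 2.70 against 6.42 and 6.48 CPM, a change of 1.31. EFNA2, another ephrin, was the lowest of the list at 1.69 and 2.19 against 0.210 and 0.387 CPM, a change of -2.67 (SE 0.42). DCC, a netrin receptor, was the highest at 1.91 (SE 0.50), from 0.196 and 0.211 to 0.514 and 1.02 CPM.

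Neuronal identity genes did not move as a block. Of 16 adrenergic transcription factors, 6 were above and 5 below both controls, beside 25.8% and 26.2% of all genes. EYA1 was at 72.7 and 73.8 against 142 and 115 CPM, a change of 0.81 (SE 0.16). Of 30 neuronal maturation genes, 8 were above and 3 below. Of 15 genes of catecholamine synthesis and storage, 2 were on each side, and N1 and N2 parted, with medians of 0.51 and -0.46. CHGB, chromogranin B, was at 380 and 392 against 1063 and 336 CPM, so N1 alone was high. TH, the rate-limiting enzyme of catecholamine synthesis, was at 11.3 and 10.5 against 30.4 and 6.15 CPM.

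PDGFRB, a receptor tyrosine kinase on the fibroblast list, was at 66.6 and 74.2 against 139 and 151 CPM, a change of 1.04 (SE 0.15). It was the only one of 5 tested fibroblast markers above both controls in both libraries, and most of the higher fibroblast sum given above was its own. DCN, which encodes the proteoglycan decorin, was at 51.8 and 49.4 against 45.5 and 38.1 CPM, and COL1A1, a collagen gene, at 0.611 and 0.843 against 0.514 and 0.329 CPM, both below. LUM and COL3A1 had N1 and N2 on opposite sides of the controls. In bulk RNA fewer cells of a type and less RNA per cell cannot be told apart. The part of other cells in these values was not tested.

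Stress and metabolic lists had medians under 0, and their counts stand beside 25.8% above and 26.2% below over all genes. Of 26 genes of the integrated stress response, 16 were below and 3 above both controls, with a median of -0.31. ATF3, a stress-induced factor, was at 20.7 and 18.6 against 8.92 and 6.59 CPM, a change of -1.34 (SE 0.23), and ASNS, asparagine synthetase, was at 123.3 and 121.3 against 60.5 in both. Of 29 hypoxia and glycolysis genes, 16 were below and 4 above, with a median of -0.23. SLC2A3, a glucose transporter, was at 13.7 and 12.8 against 38.1 and 25.5 CPM, a change of 1.26, and LDHA, lactate dehydrogenase A, was at 39.0 and 37.5 against 20.8 and 18.4 CPM, a change of -0.97. Of 23 cholesterol synthesis genes, 14 were below and 4 above, with a median of -0.34 and TM7SF2, a sterol reductase, the lowest at -1.13.

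Interferon response genes, often watched after transfection of double-stranded RNA, were not higher as a group with N1 and N2 than with siCtrl. The control cells were transfected with siRNA too, so a response common to all transfected cells could not be seen. Some listed genes were too low to test, among them IFNB1 and CXCL10 with 0 counts in all 4 libraries. Of 20 tested, 4 were above and 6 below both controls, with a median of -0.06. The shares over all genes were 25.8% and 26.2%. ISG15, a ubiquitin-like protein induced by interferon, was at 3.50 and 2.74 against 0.981 and 0.503 CPM, a change of -2.08 (SE 0.42). DDX58, or RIG-I, a sensor of double-stranded RNA, was the highest of the list at 0.489 and 0.569 against 1.47 and 0.928 CPM, a change of 1.17 (SE 0.38). Of 25 p53 targets, 4 were above and 8 below, with a median of 0.10, and BTG2, an antiproliferative target, was at 18.6 and 16.6 against 37.4 and 30.3 CPM, a change of 0.94.

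The remaining lists had medians from -0.09 to 0.41, beside 0.02 over all genes. Over all genes 25.8% were above and 26.2% below, which holds for the shares of this paragraph. Of 39 HOX genes 13 were tested, with a median of 0.41, 4 above (30.8%) and 1 below (7.69%). Medians were 0.05 for 18 mesenchymal genes, 0.01 for 14 BCL2 family genes, and -0.05 for 13 small RNA machinery genes. They were 0.05 for 31 TGF-beta and BMP genes, -0.09 for 19 Notch genes, 0.14 for 29 Wnt genes and 0.26 for 24 AP-1 and immediate early genes, of which 8 were above (33.3%) and 2 below (8.33%). In the last list N1 and N2 parted, with medians of 0.50 and -0.20, and FOSB was at 0.220 and 0.232 against 2.87 and 0.599 CPM.

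Direct differences between the libraries labelled N1 and N2 were large for single genes. Among 10856 genes at 5 CPM or more in the higher of the pair, 719 were at least 2-fold higher in N1 (6.62%) and 595 in N2 (5.48%). With 1 library per siRNA these differences have no replicate check and were not tested.

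AHNAK, a giant scaffold protein, was at 243 and 279 CPM in siCtrl and 243 in N1, but at 23.4 CPM in N2. RPS24, a protein of the small ribosomal subunit, was at 1285 and 1207 in siCtrl and 1601 in N1, but at 185 CPM in N2. HIGD1C and S1PR1 were at 4.26 to 5.67 CPM in siCtrl, at 17.4 and 28.5 CPM in N1 and at 1.12 and 3.06 CPM in N2, so both libraries departed in opposite directions. GJD2, connexin 36, was at 5.62 and 5.39 in siCtrl, 9.88 in N1 and 1.03 CPM in N2.

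On the other side, ADAMTS2, a procollagen peptidase, was at 45.2 and 49.0 in siCtrl and 53.9 in N2, but at 4.77 CPM in N1. MMP2, a gelatinase, was at 204 and 229 in siCtrl, 61.9 in N1 and 509 CPM in N2, and MYOF, a ferlin, at 0.929 and 0.674, 0.117 and 8.62 CPM. MT2A, a metallothionein, was at 3.06 and 3.62 in siCtrl, 0.724 in N1 and 7.04 CPM in N2. TMCC1-AS1, an antisense transcript, was at 14.1 and 14.7, 2.24 and 31.6 CPM, and RP11-45F15.2 at 2.40 and 3.01, 0.304 and 5.20 CPM. In these 5 genes other than ADAMTS2 the siRNA libraries stood on opposite sides of the control.

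**Figure D3:**
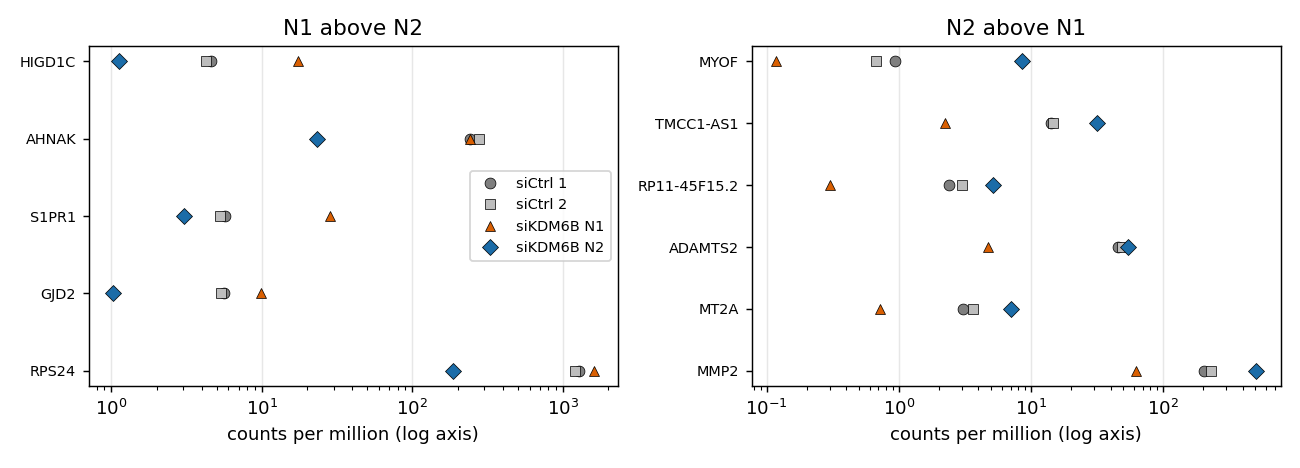
Levels in CPM (log axis) in the 4 libraries of 5 of the 6 genes with the highest (left) and the 6 with the lowest (right) ratio of the library labelled N1 to that labelled N2. RPS24 lies at 185 CPM in N2 alone and ADAMTS2 at 4.77 CPM in N1 alone, while the siCtrl libraries sit together.

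The response was also compared with that to GSK-J4 at 48 h against 0 h, by a test of the difference between the 2 log2 changes in 1 edgeR fit of 8 libraries. The siRNA and GSK-J4 experiments had their own controls, and treatment time differed, at 72 h against 48 h. The fit took 1 spread per gene from all 8 libraries, and the GSK-J4 libraries varied less than N1 and N2. edgeR's common coefficient of variation was 0.172 there, against 0.243 in the fit of the 4 siCtrl, N1 and N2 libraries. The adjusted p values of these differences may therefore be too small. Of 18270 genes, 1734 had a higher response with the siRNAs (9.49%) and 1460 a lower one (7.99%) at an adjusted p under 0.05. Those 3194 became 989 without siCtrl 1, 1027 without siCtrl 2, 10280 without N1 and 10180 without N2. Replication-dependent histones were lower in both experiments, with medians of -0.92 with the siRNAs and -2.11 with GSK-J4, and 45 of 58 differed, all with the smaller decrease under the siRNAs. In G2/M genes the medians were -0.56 and -0.95, and 22 of 54 differed, again all on that side.

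The integrated stress response and the hypoxia and glycolysis lists parted most. Their medians were -0.31 and -0.24 with the siRNAs but 1.17 and 2.04 with GSK-J4, and 24 of 29 and 26 of 29 genes differed, all lower with the siRNAs. ATF3 was at 12.2 and 12.5 CPM before GSK-J4 and at 39.9 and 43.1 CPM after it, a difference between responses of -3.10 (adjusted p = 0.000751 by edgeR). MYCN was at 3110 and 3128 CPM before GSK-J4 and 1496 and 1462 CPM after it, so its response differed by 1.19 (adjusted p = 0.00116 by edgeR). KDM6B was at 7.69 and 8.44 CPM before GSK-J4 and at 24.2 and 23.3 CPM after it, a difference of -1.48 (adjusted p = 0.0122 by edgeR). The protocadherins had medians of 0.94 and 0.40, and 5 of 53 had a higher response with the siRNAs, a share near the 9.49% of all genes. None of the S-phase genes had the higher response with the siRNAs, and 6 of 43 had the lower one, against 7.99% of all genes.

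**Figure D4:**
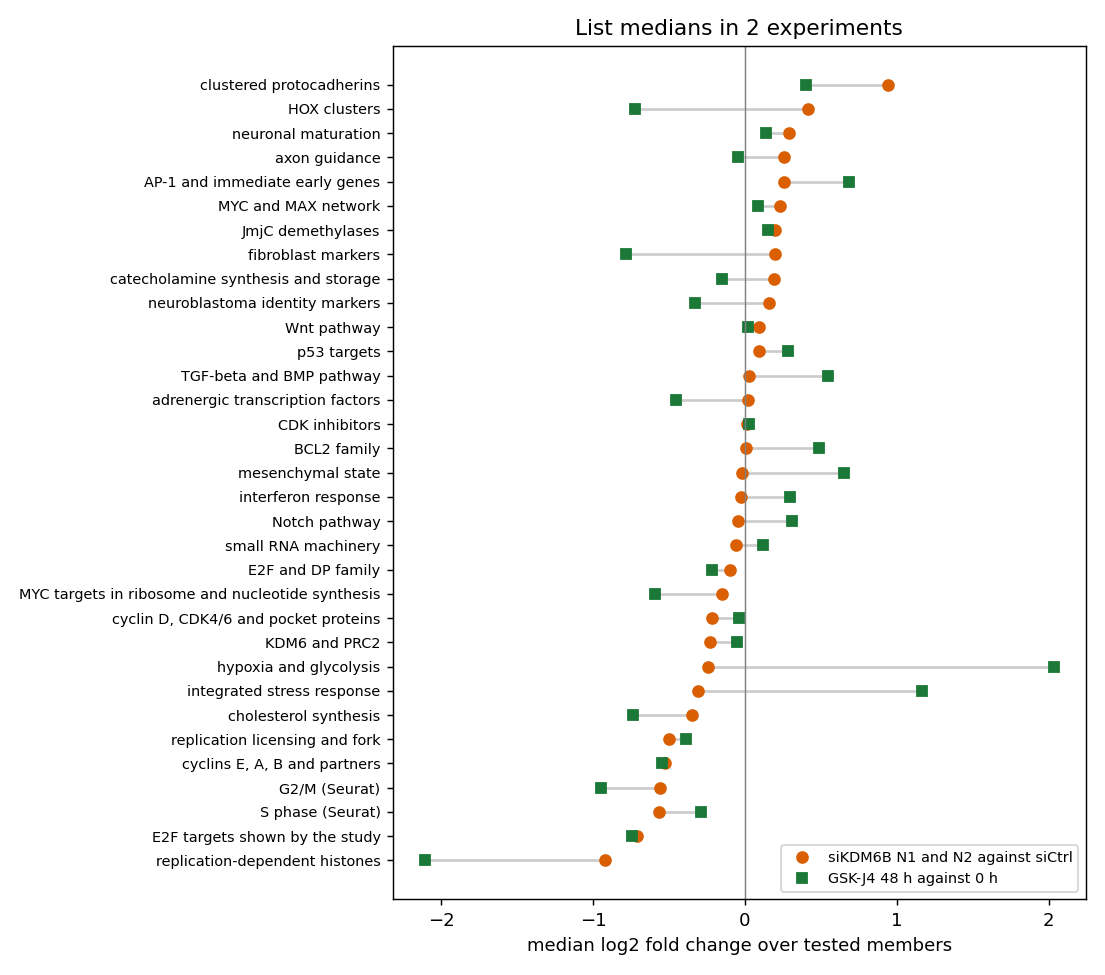
Median log2 fold change over the tested members of each list with at least 5 tested genes, for the libraries labelled N1 and N2 against siCtrl (circles) and for GSK-J4 at 48 h against 0 h (squares), from 1 fit of 8 libraries. The points lie furthest apart for hypoxia and glycolysis, at -0.24 and 2.04, and both lie under 0 for the histones, at -0.92 and -2.11.

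Gene length and the share of reads outside genes moved with the group as well. Read pairs on no annotated gene made up 12.5% and 12.7% in siCtrl, and 16.8% and 16.1% in the libraries labelled N1 and N2, each with a 95% Wilson interval of under 0.01 percentage points to either side. The 1181 genes longer than 200 kb had a median ratio to the siCtrl mean of 0.20 in N1 and 0.15 in N2, and the 1438 genes of 5 to 10 kb had medians of -0.09 and -0.13. Between the siCtrl libraries all length classes had medians within 0.02 of 0. Annotated lengths were found for 85.2% of tested genes. All 1901 genes under 5 kb had medians of -0.04 in N1 and -0.07 in N2. The 43 of 58 tested histones in that class had medians of -1.001 and -0.76. Of the protocadherins, 14 of the 15 PCDHB genes, which each have a single-exon reading frame, were also under 5 kb, with medians of 0.32 in N1 and 1.10 in N2. The 24 protocadherins of 100 to 200 kb had medians of 0.81 and 1.06, beside 0.07 and 0.055 for all 1728 genes of that length. The part of the reads outside genes in these values was not tested.

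**Figure D5:**
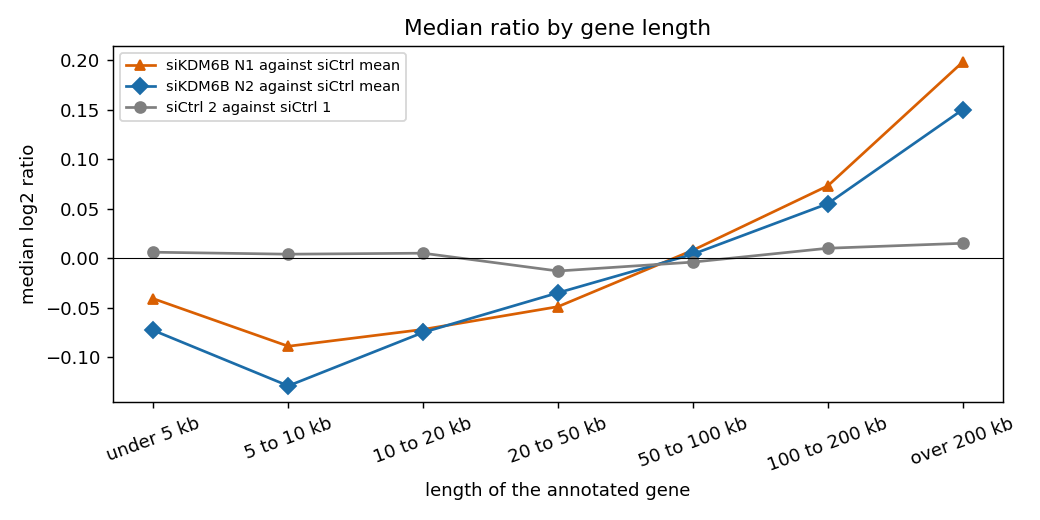
Median log2 ratio to the siCtrl mean by annotated gene length for the libraries labelled N1 and N2, and of siCtrl 2 against siCtrl 1. Both siRNA lines climb from -0.09 and -0.13 at 5 to 10 kb to 0.20 and 0.15 over 200 kb, while the control line stays within 0.02 of 0.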

How the data were processed

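Total RNA of BE2C cells was sequenced as paired ends. The authors aligned reads to GRCh37 (STAR 2.5.3a and CASAVA are named in the submitters' processing notes) and deposited whole-number counts of read pairs per gene symbol from htseq-count, without normalization. Their methods name a mouse annotation release, while the symbols are human. The 2 files of each library were summed, since the siKDM6B files carry 1 number per siRNA; for genes averaging 10 counts or more, chi-square per degree of freedom was 1.5 to 1.62 within the 4 pairs, 4.04 between siCtrl 1 and 2, and 107 between N1 and N2. The 13 mitochondrial transcripts had no row in these files and were not analysed here. The summary lines of htseq-count were kept out of library sizes and gave the shares on no gene.

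Groups came from the labels. edgeR 4.0.16 in R 4.3.3 was used (filterByExpr, TMM, quasi-likelihood F test, Benjamini-Hochberg threshold 0.05), with DESeq2 1.42.0 and limma 3.58.1 as alternatives beside other scalings, filters, samples and files as samples. No independent test of the lists was made. Ratios of single libraries had 0.1 CPM added. Named genes were the 12 highest and 12 lowest among calls, filled by smallest p where fewer were called, the members of the KDM6, E2F, cyclin and CDK lists, the extremes of each other list, and the 6 genes furthest apart on each side between N1 and N2. A few genes that met these rules are not reported here. Other genes in the text were chosen after their values were seen. The members and lists were chosen with earlier results of these data known. Positions came from the GENCODE annotation lifted to GRCh37, promoters from RefSeq. The fit was tested on simulated counts of 17044 genes. Every gene and library there had the same spread, edgeR's common coefficient of variation of 0.243. Of 100 changes of 2 on the log2 scale 84 were recovered, and of 100 changes of 1 it was 11, with 3 false calls. The real libraries were less even, with SDs of 0.16 between the siCtrl libraries and 0.70 between N1 and N2. The recovered shares therefore do not describe how sensitive the fit was on these data. Tables and figures used Python 3.11.15, pandas 2.3.3, numpy 2.4.6 and matplotlib 3.10.9. Wilson intervals cover counting error only, and the interval of the KDM6B change covers the spread between libraries.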

Additional observations from a re-analysis of the deposited data

Results flagged for a closer look

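The response of 3194 genes differed between the libraries labelled N1 and N2 (against siCtrl) and GSK-J4 at 48 h (against 0 h), by edgeR's test of the difference itself. That was 17.5% of the 18270 genes compared. The test drew 1 spread per gene from both experiments, although the GSK-J4 libraries varied less than N1 and N2. With limma-voom and 1 weight for each experiment, 3293 genes differed. Of 67 named genes compared 43 differed, each at an adjusted p under 0.05, and the values that follow are the siRNA log2 change minus the GSK-J4 log2 change. Many of the named genes were chosen by their siRNA change, which is part of the difference tested, so nothing is read from their share.

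The siRNA change was lower for DSE (-4.73), KCTD12 (-3.68), ATF3 (-3.10), SLC2A3 (-2.15), EFNA2 (-2.05), CCDC113 (-1.79), C8orf48 (-1.76), KDM6B (-1.48), ZNF664 (-1.35), USP1 (-1.34), LDHA (-1.14), E2F8 (-1.13), PAFAH1B2 (-1.06), CLSPN (-0.98), SUZ12 (-0.94), ESCO2 (-0.94), MTF2 (-0.68) and CDC25A (-0.50). DSE and KCTD12, both low in the libraries labelled siKDM6B, were higher after GSK-J4, with DSE at 37.5 and 34.7 CPM before and 270 and 276 CPM after.

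The siRNA change was higher for NELL1 (3.96), PDGFRB (3.28), CX3CL1 (2.97), DCX (2.39), SEMA3E (2.38), EFNA1 (2.35), HIST1H3J (2.33), HIST1H1B (1.86), HIST1H2BM (1.79), EYA1 (1.70), PCDHGA7 (1.31), ROBO1 (1.27), NAALAD2 (1.26), HERPUD2 (1.24), CCNB1 (1.20), MYCN (1.19), HIST1H2BB (1.11), PROS1 (1.08), CLDN12 (0.91), BTG2 (0.89), TFDP2 (0.89), AURKB (0.77), RRAGB (0.76), HIST1H2BJ (0.75) and CENPE (0.51). NELL1 was at 77.5 and 77.0 CPM before GSK-J4 and 12.2 and 13.6 CPM after, and DCX at 142 and 137 CPM before and 84.5 and 82.6 CPM after. The experiments differed in transfection, time and control, and these cannot be told apart from the agent.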

How the results depend on the processing

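The count of genes called was 0 under 10 of 17 alternatives. It was 643 with DESeq2, 1457 with no filter beyond 1 count and 3337 in 1 fit of all 11 BE2C libraries. With each file as a sample it was 4609, and 3913 with the file number as replicate block. The file numbers share only a number, so the samples are not paired by them. Leaving out 1 library gave 0 to 9573 calls: 0 without siCtrl 1 or 2, 8737 without the library labelled N1 and 9573 without that labelled N2, with the lone siRNA library assumed to vary like siCtrl. The KDM6B change of 0.08 became -0.13 without siCtrl 1 and -0.11 without N1, and was at most 0.31 without 1 library, never called.

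List medians kept their direction for S phase, G2/M, histones and protocadherins under every alternative run. S phase was -0.57 with limma-voom, -0.54 with upper quartiles, -0.59 with no filter, -0.54 with files as samples, -0.54 with the replicate block, -0.57 with N33 as its own group and -0.79 with N33 in the group, and -0.58 to -0.53 without 1 library. G2/M was -0.77 with N33 in the group and -0.58 to -0.45 without 1 library, histones -1.27 and -0.97 to -0.80, and protocadherins 0.71 to 1.14. With N33 in the group MYCN became -0.29 and CCND1 -0.21, both uncalled.

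Of 1054 values of 66 named genes under the alternatives, 627 kept direction and stayed uncalled, 425 kept direction and were called, and 2 turned. The genes that differed from GSK-J4 numbered 1436 with 24 h in place of 48 h, and 989 to 10280 without 1 library, 989 and 1027 without siCtrl 1 and 2, 10280 and 10180 without N1 and N2. N1 and N2 differed by 2-fold in 1314 genes and by 1.5-fold in 3382. At this depth a count of 0 allows up to 3 counts in a library, or 0.0591 to 0.0728 CPM.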
